A study of Mus musculus with 9 samples.

Results

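The presynaptic vesicle release machinery was examined as a list of 44 genes, grouped by the function of their products. A gene was measured where a probe set, the group of probes read out as 1 signal, named that gene alone. This held for 43 of the 44 genes, among 18820 genes on the array. The remaining one, Doc2a, had 2 probe sets, both shared with its neighbour Ino80e, and was left out. The 43 comprised 10 SNAREs and SNARE regulators, 8 synaptotagmins and other calcium sensors, 10 active zone proteins, 13 vesicle proteins and 2 genes of vesicle recycling. RNA was from the hippocampus of C57BL/6 mice, 12 to 14 weeks old, with 3 samples from control mice, 3 from mice after tibia fracture surgery and 3 from mice that received Maresin 1 before the same surgery. Operated mice were sampled 72 h after surgery. Maresin 1 belongs to the mediators derived from docosahexaenoic acid that help end inflammation. The labels name no anaesthetic, sham operation or vehicle for the control mice, and no dose of Maresin 1, and no group received Maresin 1 without surgery. By the series title, the study asked about Maresin 1 and inflammation of the brain around surgery.

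At a nerve terminal, vesicles filled with transmitter dock at the active zone, a protein meshwork that faces the synaptic cleft. The vesicle SNARE synaptobrevin zips together with syntaxin and SNAP-25 on the plasma membrane, complexin holds and then assists the assembled complex, and synaptotagmin triggers fusion when it binds calcium. NSF and its adaptors then take the spent SNARE complexes apart, and vesicle membrane is retrieved by endocytosis. In the hippocampus these proteins serve the glutamatergic pathways from the entorhinal cortex to dentate gyrus, CA3 and CA1, and the local inhibitory neurons.

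Levels are given as log2 of the quantile normalised signal plus 16. The deposited signals differed between arrays, with medians from 54.1 to 100. Background was judged from olfactory receptor genes, which are silent in most tissues. Over 990 of them the 95th percentile of level was 5.86, and all 43 members lay above it. All 6 measured markers of dentate granule neurons, 5 of CA1 pyramidal neurons and 5 of CA3 pyramidal neurons also lay above it. The arrays of control replicates 2 and 3 stood apart by transcripts of the choroid plexus. The mean deviation of 11 choroid plexus markers from their 9-array mean was 2.75 and 3.14 in these arrays and lay between -0.98 and -0.67 in the other 7. In RNA from whole tissue, fewer cells of a type and less RNA per cell cannot be told apart. The titles name the arrays as biological replicates and do not say whether a replicate is 1 animal.

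Release machinery genes of hippocampus taken 72 h after surgery lay close to control, and many lay slightly lower with Maresin 1 than in both other groups. The median log2 difference of the 43 members was 0.00 after surgery relative to control. With Maresin 1 it was -0.04 relative to surgery and -0.07 relative to control. The medians of all genes were 0.02, -0.02 and 0.00. Without control replicate 1, the members' median with Maresin 1 relative to control was -0.02, against -0.01 for all genes. Then 23 of 43 members lay below control, against 52.8% of all genes. The differences were small, with members between -0.40 and 0.29 over the 3 comparisons. In the limma test with Benjamini-Hochberg adjustment over all genes, 0 members passed an adjusted p of 0.05 in any comparison, against 0% of all genes for surgery relative to control, 0% for Maresin 1 relative to surgery and 0.0850% for Maresin 1 relative to control. The F test of any difference among the 3 groups also called 0 members, with 10 at an unadjusted p under 0.05, or 23.3%, against 8.85% of all genes.

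**Figure D1:**
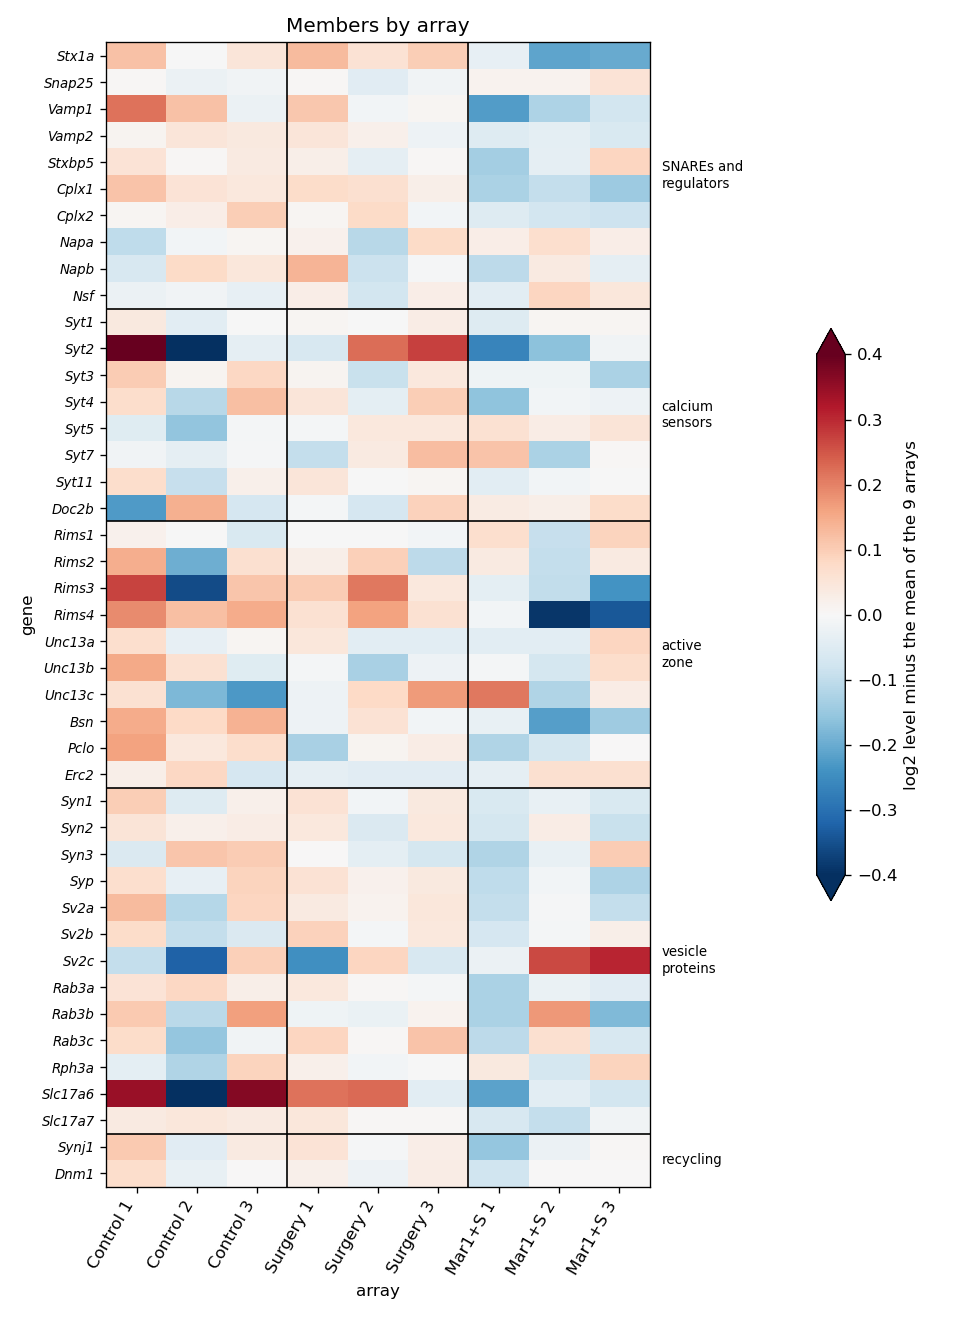
Each row is 1 of the 43 members and each column 1 of the 9 arrays (Mar1+S, Maresin 1 with surgery). Colour gives the log2 level minus that gene's mean over the 9 arrays, with values beyond -0.4 and 0.4 at the end colours. Stx1a, Cplx1, Vamp1, Bsn and Rims4 lie below their means in all 3 Maresin 1 arrays, though Stx1a, Bsn and Rims4 are close to white in Maresin 1 replicate 1. Slc17a6 and Syt2 are darkest blue in control replicate 2.

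The counts without an adjusted threshold differed between comparisons. After surgery, 1 member, Syt5, had an unadjusted p under 0.05 relative to control and was higher. That is 2.33% of the members, against 6.21% of all genes, 3.90% higher and 2.31% lower. The surgery arrays lay below all control arrays for 2 members and above them for 1, or 4.65% and 2.33%, against 3.82% and 7.71% of all genes. Without control replicate 1, 0 members were lower and 4 higher at this p, against 9.5% of all genes in either direction. Without control replicate 2, 3 were lower and 1 higher, against 3.72%. The count was 2 without Maresin 1 replicate 1 (6.47% of all genes) and 0 without Maresin 1 replicate 3 (6.51%), arrays of the third group entering through the shared variance.

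With Maresin 1, 31 of 43 members lay below surgery, 72.1%, against 58.3% of all genes. At an unadjusted p under 0.05, 7 members were lower and 0 higher, or 16.3% and 0%, against 3.70% and 1.96% of all genes, 5.66% together. The Maresin 1 arrays lay below all surgery arrays for 15 members and above them for 1, or 34.9% and 2.33%, against 8.20% and 4.79% of all genes. Relative to control, 31 of 43 members again lay lower, against 51.0% of all genes. At an unadjusted p under 0.05, 11 were lower and 2 higher, or 25.6% and 4.65%, against 5.61% and 5.87% of all genes, 11.5% together. The Maresin 1 arrays lay below all control arrays for 11 members and above them for 3, or 25.6% and 6.98%, against 6.71% and 7.61% of all genes.

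Since every member lay above the olfactory receptor level, the 13363 genes that did so are the closer background. Of these, 7.25% had an unadjusted p under 0.05 after surgery relative to control, 2.77% lower, and 4.21% lay below control without overlap. With Maresin 1 relative to surgery the shares were 6.12%, 3.75% and 8.40%, and relative to control they were 14.8%, 6.97% and 7.67%. The members' shares of lower values with Maresin 1 exceeded these in both comparisons. The 13363 genes still had a wider median SD within groups, 0.10 against 0.07 for the members. No background of genes of like level and spread was compared.

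For 9 members, 20.9%, the Maresin 1 arrays lay below all 6 other arrays, against 2.62% of all genes: Stx1a, Vamp1, Vamp2, Cplx1, Cplx2, Rims4, Bsn, Rab3a and Slc17a7. Snap25 alone among the members, 2.33%, lay above all 6, against 2.11% of all genes. Both comparisons with Maresin 1 share the Maresin 1 arrays, and both comparisons with control share the control arrays.

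These counts moved with the normalisation. Scaling every array to one median instead left 34 of 43 members below control with Maresin 1, 1 of them at an unadjusted p under 0.05 and 0 without overlap, while 42 were below surgery, 10 of them at that p and 27 without overlap. Of all genes, 48.9% were then below control and 77% below surgery, and 3.48% and 3.67% had an unadjusted p under 0.05 in either direction. The medians of all genes were then -0.09 for Maresin 1 relative to surgery and 0.10 for surgery relative to control. After surgery all 43 members then lay above control, with a median of 0.13, while 24.3% of all genes lay below control. On the deposited signals without normalisation, the members' medians with Maresin 1 were -0.12 relative to surgery and -0.13 relative to control. Those of all genes were 0.00 and -0.03. Of the 43 members, 40 lay below surgery and 38 below control, against 50.7% and 58.9% of all genes. There, 0 members had an unadjusted p under 0.05 in any comparison, against 0.855% to 1.63% of all genes, and 0 lay without overlap. The share of all genes without overlap was not counted under median scaling or without normalisation, so the members' overlap counts there have no background beside them. The members' median with Maresin 1 was below 0 in both comparisons with quantile, median and cyclic loess scaling and with none. Without surgery replicate 1, 4 members rather than 7 had an unadjusted p under 0.05 for Maresin 1 relative to surgery. The share of all genes was then 4.36% rather than 5.66%.

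**Figure D2:**
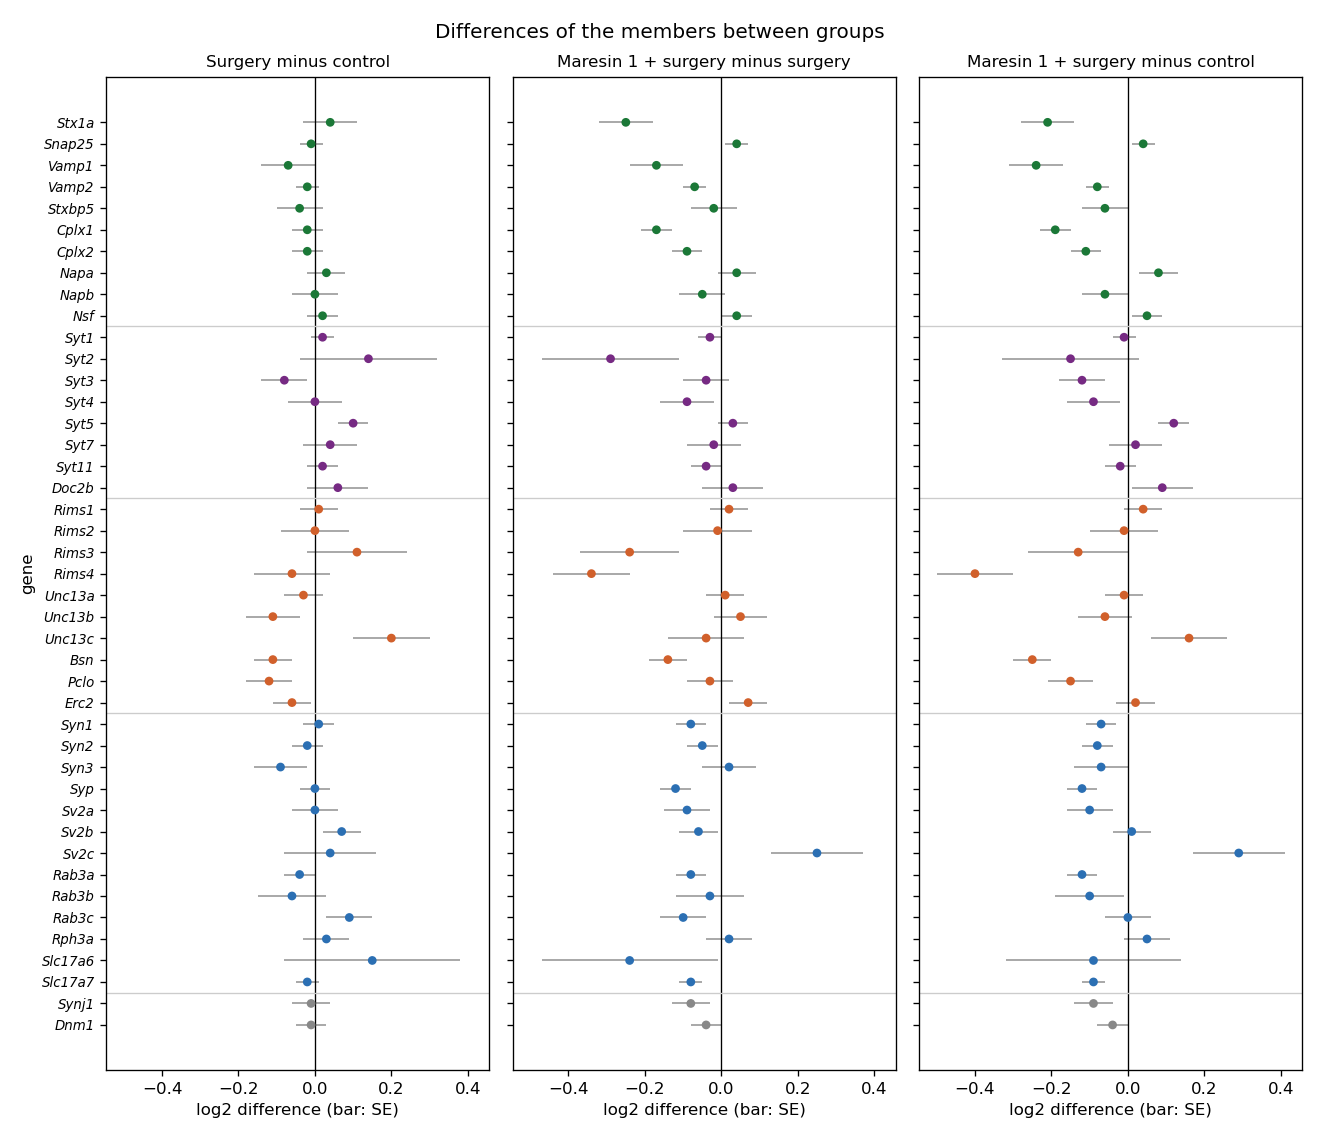
Log2 differences of the 43 members (points, coloured by class) with their standard errors (bars) in the 3 comparisons, on 1 shared horizontal axis. Points lie near 0 between surgery and control, from -0.12 to 0.20, and 31 of 43 lie left of 0 in each comparison with Maresin 1.

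Complexins are small proteins that bind the assembled SNARE complex and set how it responds to calcium. Cplx1 had the smallest p of all members in both comparisons with Maresin 1. Its level was 11.70, 11.64 and 11.63 in control, 11.66, 11.65 and 11.61 after surgery, and 11.46, 11.49 and 11.44 with Maresin 1. The 3 Maresin 1 arrays lay below the other 6, which overlapped among themselves. The difference was -0.17 (SE 0.04, adjusted p = 0.859) from surgery and -0.19 (SE 0.04, adjusted p = 0.0832) from control, or 1.13-fold and 1.14-fold lower. Over 21 alternatives the difference from control ran from -0.26 to -0.17. The deposited signals before normalisation were 4570, 2530 and 2840 in control, 2350, 3830 and 3510 after surgery and 2730, 2620 and 2660 with Maresin 1, and these overlapped. Cplx2, the paralogue, was lower by less, at -0.09 (SE 0.04) from surgery and -0.11 (SE 0.04) from control, again without overlap.

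Of the plasma membrane SNAREs, Stx1a encodes syntaxin 1A. Its level was 9.21, 9.09 and 9.14 in control, 9.22, 9.15 and 9.19 after surgery, and 9.06, 8.88 and 8.89 with Maresin 1. Control and surgery overlapped and Maresin 1 lay below both, with Maresin 1 replicate 1 the nearest to them. The difference was -0.25 (SE 0.07, adjusted p = 0.859) from surgery, 1.19-fold, and -0.21 (SE 0.07, adjusted p = 0.239) from control. Snap25, its partner on the same membrane, lay the other way. It was at 12.65, 12.62 and 12.63 in control, 12.65, 12.60 and 12.63 after surgery, and 12.66, 12.66 and 12.70 with Maresin 1. The Maresin 1 arrays were highest, by 0.04 (SE 0.03, adjusted p = 0.709 against control). That sign depended on the scaling. Under median scaling the difference from surgery was -0.18, and without normalisation that from control was -0.12. Snap25 had the narrowest range of the members over the 9 arrays, 0.09.

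Vamp1 and Vamp2 encode synaptobrevins, the SNAREs of the vesicle membrane. Vamp1 was at 10.60, 10.50 and 10.36 in control, 10.49, 10.37 and 10.39 after surgery, and 10.16, 10.26 and 10.31 with Maresin 1. Its 3 Maresin 1 values were the lowest of the 9, at -0.17 (SE 0.07, adjusted p = 0.859) from surgery and -0.24 (SE 0.07, adjusted p = 0.177) from control. Vamp2 was at 12.22, 12.26 and 12.25 in control, 12.26, 12.23 and 12.19 after surgery, and 12.16, 12.17 and 12.15 with Maresin 1. Its 3 Maresin 1 values were again the lowest of the 9, at -0.07 (SE 0.03) from surgery and -0.08 (SE 0.03) from control. Stxbp5, tomosyn, which competes for syntaxin and limits fusion, differed by -0.02 (SE 0.06) and -0.06 (SE 0.06), with overlap.

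The genes that take SNARE complexes apart differed in sign. Nsf, the ATPase, differed by 0.04 (SE 0.04) from surgery and 0.05 (SE 0.04) from control with Maresin 1. Of its adaptors, Napa differed by 0.04 and 0.08 and Napb by -0.05 and -0.06. Among the 10 genes of this class, the values between surgery and control lay between -0.07 and 0.04. Surgery and control were free of overlap for 0 of them, against 11.5% of all genes. Maresin 1 lay below surgery without overlap for 5, the syntaxin, both synaptobrevins and both complexins, against 8.20% of all genes.

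**Figure D3:**
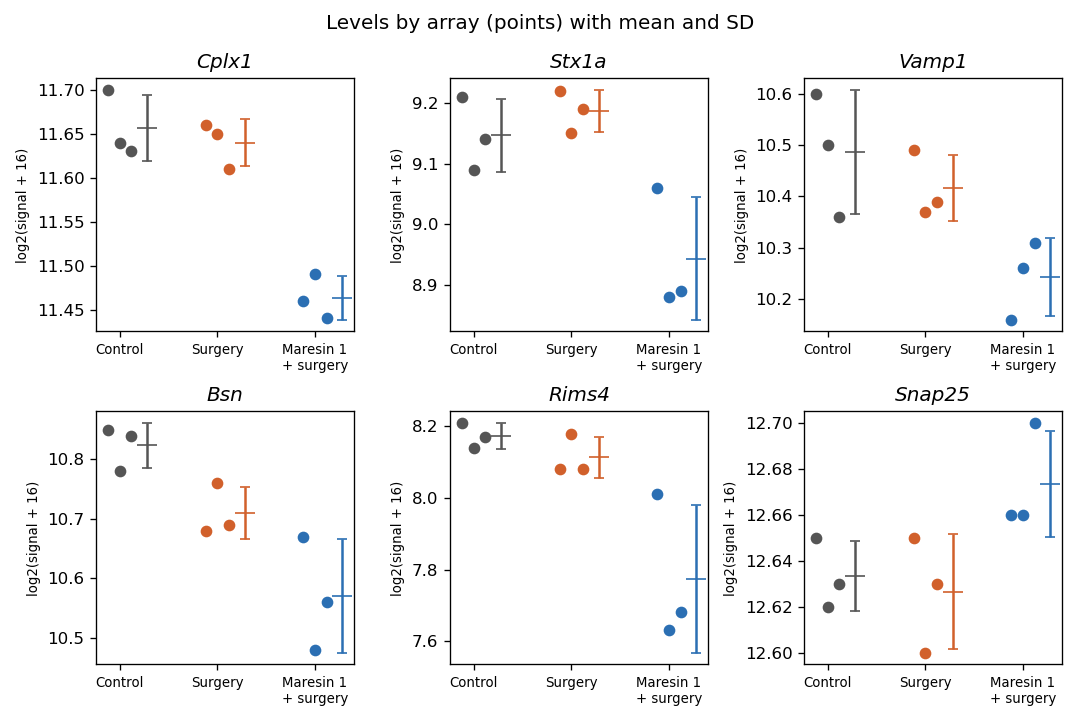
Levels, log2 of the quantile normalised signal plus 16, of 6 members in the 9 arrays (points), with the mean and SD of each group of 3 beside them. Vertical axes differ between panels and do not start at 0. Maresin 1 arrays lie below the other 6 for Cplx1, Stx1a, Vamp1, Bsn and Rims4, and above them for Snap25.

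The promoters of the 4 members with the smallest p between Maresin 1 and control for which a window was listed are shown here, since all 4 had their lowest levels in the Maresin 1 arrays. Each window runs from 250 bases before to 50 after the annotated start, 5′ to 3′ on the gene's strand, from RefSeq in build GRCm38.p6. They are Cplx1 at chr5:108549978-108550277 (minus strand), Bsn at chr9:108190334-108190633 (minus), Vamp1 at chr6:125215331-125215630 (plus) and Stx1a at chr5:135023232-135023531 (plus). Capitals mark matches, on either strand, to 1 of 5 promoter motifs, and no matches overlapped each other. The GC box was searched as GGGCGG. For the TATA motif the letters searched were TATAAA, and the third motif, named for its own letters, was CCAAT. The full cyclic AMP response element was searched as TGACGTCA, and the last was the palindrome bound by NRF1.
Cplx1: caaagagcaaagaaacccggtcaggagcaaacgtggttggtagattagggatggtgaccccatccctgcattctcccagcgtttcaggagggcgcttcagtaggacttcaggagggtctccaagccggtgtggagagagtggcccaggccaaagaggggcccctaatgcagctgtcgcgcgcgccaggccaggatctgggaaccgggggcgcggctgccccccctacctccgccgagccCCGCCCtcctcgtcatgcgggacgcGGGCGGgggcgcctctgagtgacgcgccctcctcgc
Bsn: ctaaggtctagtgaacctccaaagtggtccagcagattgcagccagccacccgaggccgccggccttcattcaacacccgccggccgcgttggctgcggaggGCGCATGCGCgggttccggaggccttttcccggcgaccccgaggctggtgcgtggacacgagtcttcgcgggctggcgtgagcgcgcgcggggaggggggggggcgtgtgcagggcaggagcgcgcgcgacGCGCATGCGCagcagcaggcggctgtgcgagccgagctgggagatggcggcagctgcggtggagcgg
Vamp1: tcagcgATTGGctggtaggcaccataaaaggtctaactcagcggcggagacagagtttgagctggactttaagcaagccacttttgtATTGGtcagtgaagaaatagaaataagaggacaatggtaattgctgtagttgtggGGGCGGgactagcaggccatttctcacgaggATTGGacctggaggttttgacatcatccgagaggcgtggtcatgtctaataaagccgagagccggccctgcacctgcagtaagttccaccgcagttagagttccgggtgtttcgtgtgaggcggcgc
Stx1a: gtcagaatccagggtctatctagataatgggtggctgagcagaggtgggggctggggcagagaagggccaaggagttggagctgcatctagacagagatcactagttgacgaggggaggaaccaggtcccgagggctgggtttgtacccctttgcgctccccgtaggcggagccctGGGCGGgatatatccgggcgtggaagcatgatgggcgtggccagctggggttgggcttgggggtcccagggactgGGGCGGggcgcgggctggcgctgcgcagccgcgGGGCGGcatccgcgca
Cplx1 held 2 GC boxes, Stx1a 3 and Vamp1 1 with 3 CCAAT boxes, while Bsn held none of these and 2 NRF1-type matches. No motif was found in all 4.

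A window was listed for 34 of the 44 members, and where a gene had several the one listed at the top was used. Their median GC content was 62.3%, against 52.7% over 27025 windows of the same length and 56.3% over 17492 of protein-coding genes. A GC box stood in 26 of 34, or 76.5%, against 35.9% of all windows and 46.3% of protein-coding ones. A TATA box stood in 2, Rab3b and Sv2b, or 5.88%, against 14.2% of all windows and 13.3% of protein-coding ones. A CCAAT box stood in 8, or 23.5%, against 37.9% and 39%. The cyclic AMP response element stood in Napa and Syn1, 5.88% against 1.88% and 2.34%. The NRF1-type motif stood in Bsn, Nsf, Pclo, Stxbp5 and Syp, 14.7% against 4.78% and 6.6%. These are matches of letters in a fixed window, with no measure of binding in these data.

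Of the 8 calcium sensors, 6 lay below surgery with Maresin 1, between -0.29 for Syt2 and -0.02 for Syt7, against 58.3% of all genes. In that comparison 0 of the 8 had an unadjusted p under 0.05, against 5.66% of all genes. Syt1, the sensor of fast synchronous release in forebrain neurons, was at 12.51, 12.43 and 12.47 in control, 12.48, 12.47 and 12.50 after surgery, and 12.42, 12.48 and 12.48 with Maresin 1. All 3 groups overlapped, with differences from -0.03 to 0.02 (SE 0.03). Syt5 was the single member with an unadjusted p under 0.05 between surgery and control. It was at 11.36, 11.25 and 11.40 in control, 11.40, 11.45 and 11.45 after surgery, and 11.47, 11.44 and 11.46 with Maresin 1. Both operated groups lay at or above the highest control, by 0.10 (SE 0.04, adjusted p = 0.786) and 0.12 (SE 0.04, adjusted p = 0.287). The difference between surgery and control was 0.05 without control replicate 2.

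Syt7, a slow sensor of high calcium affinity, differed by 0.04, -0.02 and 0.02 over the comparisons in the order surgery against control, Maresin 1 against surgery and Maresin 1 against control (SE 0.07). Syt3 differed by -0.08, -0.04 and -0.12 (SE 0.06) and lay below control without overlap with Maresin 1. Syt4 and Syt11, family members that do not bind calcium in the usual way, differed by 0.00, -0.09 and -0.09 (SE 0.07) and by 0.02, -0.04 and -0.02 (SE 0.04). Doc2b, a soluble sensor tied to spontaneous release, differed by 0.06, 0.03 and 0.09 (SE 0.08). Of the 8 genes, 1 lay below surgery without overlap with Maresin 1, Syt11, and 1 below control, Syt3. The shares of all genes were 8.20% and 6.71%, so a count of 1 in 8 is near the background.

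At the active zone, Bsn encodes the large scaffold Bassoon. It was at 10.85, 10.78 and 10.84 in control, 10.68, 10.76 and 10.69 after surgery, and 10.67, 10.48 and 10.56 with Maresin 1. Control arrays were highest and Maresin 1 arrays lowest, with no overlap between any pair of groups. The difference was -0.11 (SE 0.05, adjusted p = 0.794) between surgery and control, -0.14 (SE 0.05, adjusted p = 0.859) between Maresin 1 and surgery and -0.25 (SE 0.05, adjusted p = 0.0916) between Maresin 1 and control. The surgery difference was 0.04 under median scaling, and the Maresin 1 difference from surgery was -0.09 without Maresin 1 replicate 2. A second probe set of Bsn gave 0.01 (SE 0.09), -0.23 (SE 0.09) and -0.22 (SE 0.09), so its surgery value was near 0 and both Maresin 1 values were lower.

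Pclo, which encodes the related scaffold Piccolo, was at 11.03, 10.91 and 10.94 in control, 10.74, 10.88 and 10.90 after surgery, and 10.75, 10.80 and 10.87 with Maresin 1. Both operated groups lay below control without overlap and overlapped each other, at -0.12 (SE 0.06, adjusted p = 0.794) and -0.15 (SE 0.06, adjusted p = 0.297). The surgery difference was 0.02 under median scaling. Erc2, the scaffold ELKS2 or CAST, differed by -0.06, 0.07 and 0.02 (SE 0.05).

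RIM proteins tether calcium channels and vesicles at the release site, and the short forms encoded by Rims3 and Rims4 carry only a C-terminal part of the long ones. Rims4 was at 8.21, 8.14 and 8.17 in control, 8.08, 8.18 and 8.08 after surgery, and 8.01, 7.63 and 7.68 with Maresin 1. The Maresin 1 arrays were lowest, replicates 2 and 3 by more than replicate 1. The difference was -0.34 (SE 0.10, adjusted p = 0.859) from surgery, 1.27-fold, and -0.40 (SE 0.10, adjusted p = 0.128) from control, 1.32-fold, the widest of any member. Without Maresin 1 replicate 2 these were -0.27 and -0.33, and without replicate 1 they were -0.46 and -0.52. Rims3 differed by -0.24 (SE 0.13) from surgery without overlap, and by -0.13 (SE 0.13) from control with overlap, the latter at 0.00 without control replicate 1. The long form Rims1 was at 10.73, 10.71 and 10.65 in control, 10.71, 10.71 and 10.70 after surgery, and 10.78, 10.62 and 10.80 with Maresin 1. Its groups overlapped, with differences of 0.01, 0.02 and 0.04 (SE 0.05), and Rims2 stood at 0.00, -0.01 and -0.01 (SE 0.09).

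Munc13 proteins prime docked vesicles by opening syntaxin. Unc13a, the main form in forebrain, differed by -0.03, 0.01 and -0.01 (SE 0.05), and Unc13b by -0.11, 0.05 and -0.06 (SE 0.07). A second probe set of Unc13a stood at -0.11, -0.08 and -0.19 (SE 0.07). Unc13c, known mainly from cerebellar granule cells, was at 8.37, 8.13 and 8.08 in control, 8.29, 8.39 and 8.48 after surgery, and 8.52, 8.19 and 8.34 with Maresin 1. Surgery overlapped control, at 0.20 (SE 0.10, adjusted p = 0.796). This is the value of the probe set with the highest mean, and the array holds 7 for this gene. The other 6 differed between surgery and control by 0.38 to 0.54, and for 4 of them the surgery arrays lay above all control arrays. Their unadjusted p ran from 0.00543 to 0.14, and the adjusted p over all probe sets was 0.875 for each of the 7. Averaged over the 7, the level was 7.72, 7.22 and 7.57 in control, 7.70, 8.05 and 8.03 after surgery, and 8.04, 7.60 and 7.54 with Maresin 1, so that surgery replicate 1 lay under control replicate 1. Against control replicate 1 alone the chosen probe set differed by 0.02.

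**Figure D4:**
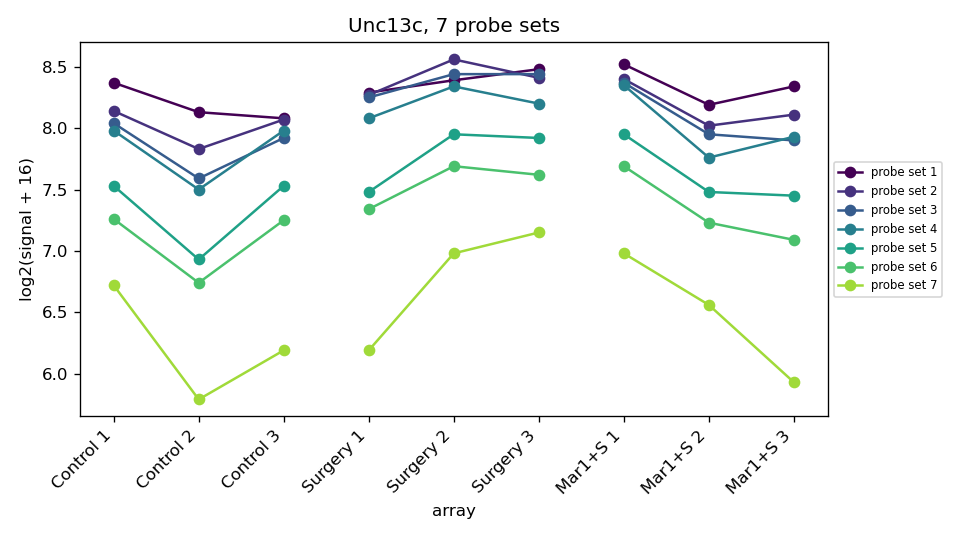
Levels of the 7 Unc13c probe sets in the 9 arrays, numbered by falling mean level, with lines joining the arrays of 1 group. Control replicate 2 is lowest for probe sets 2 to 7, and the surgery arrays lie above control by 0.20 to 0.54 on average.

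Of the vesicle membrane proteins, Syp encodes synaptophysin, the abundant partner of synaptobrevin. It was at 11.80, 11.70 and 11.82 in control, 11.79, 11.75 and 11.77 after surgery, and 11.63, 11.72 and 11.61 with Maresin 1. Maresin 1 lay below surgery without overlap, at -0.12 (SE 0.04, adjusted p = 0.859), and overlapped control, at -0.12 (SE 0.04, adjusted p = 0.289). The synapsins, which bind vesicles to one another in the reserve pool, differed with Maresin 1 by -0.08 (SE 0.04) from surgery for Syn1 and -0.05 (SE 0.04) for Syn2, and by 0.02 (SE 0.07) for Syn3. Sv2a, the binding site of levetiracetam, differed by -0.09 (SE 0.06) from surgery and -0.10 (SE 0.06) from control. Sv2b stood at -0.06 and 0.01 (SE 0.05). Sv2c was the member furthest above the others with Maresin 1, at 0.25 (SE 0.12, adjusted p = 0.859) from surgery and 0.29 (SE 0.12, adjusted p = 0.367) from control. Its arrays overlapped in both, and replicates 2 and 3 of Maresin 1, at 8.76 and 8.80, were its highest.

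Rab3 proteins are GTPases of the vesicle surface. Rab3a, the main form, differed by -0.04, -0.08 and -0.12 (SE 0.04, adjusted p = 0.284 for the last), and its Maresin 1 arrays lay below all others. Rab3b stood at -0.06, -0.03 and -0.10 (SE 0.09), Rab3c at 0.09, -0.10 and 0.00 (SE 0.06), and the Rab3 effector Rph3a at 0.03, 0.02 and 0.05 (SE 0.06).

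The carriers that fill vesicles with glutamate differed in their spread. Slc17a7, the carrier of hippocampal principal neurons, was at 12.26, 12.27 and 12.26 in control, 12.27, 12.23 and 12.23 after surgery, and 12.16, 12.13 and 12.21 with Maresin 1. Maresin 1 lay below both groups, at -0.08 (SE 0.03, adjusted p = 0.859) and -0.09 (SE 0.03, adjusted p = 0.287). Slc17a6, the carrier typical of thalamic and other subcortical glutamate neurons, was at 8.25, 7.12 and 8.27 in control, 8.12, 8.13 and 7.86 after surgery, and 7.69, 7.86 and 7.83 with Maresin 1. Control replicate 2 was far below the other 8, and surgery replicate 3 met the highest Maresin 1 array to within rounding. The difference from surgery with Maresin 1 was -0.24 (SE 0.23, adjusted p = 0.909), without overlap, and from -0.33 to -0.19 over the 21 alternatives. The difference from control was -0.09 (SE 0.23) with Maresin 1 and 0.15 (SE 0.23) after surgery. These were -0.47 and -0.22 without control replicate 2.

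Of the recycling genes, Synj1, the lipid phosphatase that uncoats retrieved vesicles, differed by -0.01, -0.08 and -0.09 (SE 0.05), and Dnm1, the GTPase that cuts them from the membrane, by -0.01, -0.04 and -0.04 (SE 0.04). Both overlapped in all comparisons.

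Members differed widely in how steady they were. The median SD within groups was 0.07 for the members, against 0.11 for all genes, and 38 of 43 spanned less than 0.5 over the 9 arrays. The exceptions were Slc17a6 with 1.15, Syt2 with 0.92, Rims3 with 0.63, Sv2c with 0.63 and Rims4 with 0.59. Syt2, the fast sensor of inhibitory basket cells and of many subcortical neurons, was at 7.76, 6.84 and 7.24 in control, 7.21, 7.50 and 7.55 after surgery, and 7.01, 7.11 and 7.26 with Maresin 1. Control replicates 1 and 2 were its highest and lowest arrays. With Maresin 1 it differed from surgery by -0.29 (SE 0.18, adjusted p = 0.871), with overlap, and this ran from -0.40 to -0.22 over the 21 alternatives. Its difference from control with Maresin 1 was -0.15 (SE 0.18), 0.09 without control replicate 1 and -0.64 against control replicate 1 alone. Control replicate 2 was the lowest array for 11 of 43 members, Slc17a6, Syt2, Rims3 and Sv2c among them, and for 20% of all genes.

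**Figure D5:**
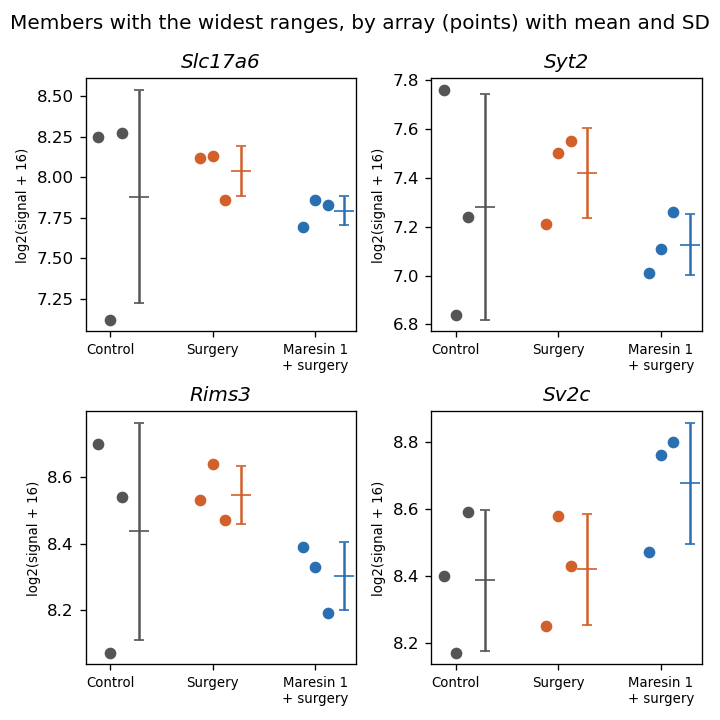
Levels, log2 of the quantile normalised signal plus 16, of the 4 members with the widest ranges in the 9 arrays (points), with the mean and SD of each group of 3. Vertical axes differ between panels and do not start at 0. Control replicate 2, the middle control point, is the lowest of the 9 arrays in each panel.

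Control replicate 1 was the highest array for 17 of 43 members, against 9.52% of all genes, and without it the members' median difference between Maresin 1 and control was -0.02, with 23 of 43 lower, against a median of -0.01 and 52.8% lower among all genes. Without Maresin 1 replicate 1 that median was -0.04. The 5 members Cplx1, Stx1a, Vamp1, Bsn and Rims4 kept a negative difference from surgery and from control with Maresin 1 under all 21 alternatives, as did Vamp2, Cplx2, Rab3a and Slc17a7, and none of these was called under any. Most of the alternatives could not have changed that sign, since the Maresin 1 arrays of these members lay below all other arrays. Only another normalisation, or for Bsn the mean over its probe sets, could have done so. The smallest adjusted p of any member over the alternatives was 0.0543, for Rims4 between Maresin 1 and control.

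Outside the members, 50 of 55 listed genes of the synaptic vesicle cycle were measured, and 0 were called in any comparison. Their median difference was 0.02 after surgery relative to control, and -0.05 and -0.02 with Maresin 1 relative to surgery and to control, and 16, 37 and 26 of them were lower, or 32%, 74% and 52%, against 41.6%, 58.3% and 51.0% of all genes. At an unadjusted p under 0.05, 2 were higher after surgery than in control, 6 were lower with Maresin 1 than after surgery, and 6 were lower and 3 higher with Maresin 1 than in control. The shares of all genes in these directions were 3.90%, 3.70%, 5.61% and 5.87%. After surgery relative to control, the smallest p belonged to Snap29 (0.21, SE 0.06, adjusted p = 0.63), a widely expressed SNARE, the vesicle protein gene Syngr3 (0.15, SE 0.05) and Cplx3 (0.26, SE 0.14). For Maresin 1 relative to surgery they were Syt13 (-0.13, SE 0.04, adjusted p = 0.859), Syngr1 (-0.14, SE 0.05) and Slc17a8 (-0.27, SE 0.09), a glutamate carrier of some interneurons and serotonin neurons. For Maresin 1 relative to control they were Syt9 (-0.44, SE 0.12, adjusted p = 0.178), the vesicle protein gene Scamp5 (-0.14, SE 0.04) and Svop (-0.15, SE 0.05), a transporter-like protein of synaptic vesicles.

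Markers of the cell types in the tissue moved to different degrees beside these values. Scores are the mean deviation of a list from the 9-array mean. The members themselves scored -0.06 to 0.07 in control, 0.01 to 0.03 after surgery and -0.06 to -0.02 with Maresin 1. General neuron markers, 8 measured, scored -0.01 to 0.12 in control, -0.01 to 0.03 after surgery and -0.06 to -0.01 with Maresin 1. With Maresin 1, 5 of 8 were lower than after surgery, against 58.3% of all genes. Their median differences with Maresin 1 were -0.04 from surgery and -0.06 from control, beside -0.04 and -0.07 for the members. Dentate granule neuron markers scored -0.33 to 0.11, -0.13 to -0.08 and 0.09 to 0.28, with 6 of 6 higher with Maresin 1 than after surgery. CA1 markers scored -0.06 to 0.00, 0.00 to 0.09 and -0.17 to 0.10, and inhibitory neuron markers -0.15 to 0.13, 0.00 to 0.05 and -0.11 to 0.05. CA3 markers scored 0.00 to 0.07, -0.09 to 0.05 and -0.05 to -0.01. Markers of thalamus and habenula scored -0.11 to 0.03, -0.06 to 0.09 and -0.02 to 0.05. Cerebral cortex markers scored -0.11 to 0.10, 0.03 to 0.07 and -0.13 to 0.09, and striatum markers -0.17 to 0.28, -0.10 to 0.06 and -0.16 to 0.07. Astrocyte markers scored -0.20 to 0.02, -0.02 to 0.04 and -0.04 to 0.19, oligodendrocyte markers -0.23 to 0.04, -0.09 to 0.11 and -0.05 to 0.15, microglia markers -0.09 to 0.00, 0.02 to 0.07 and -0.09 to 0.15, and endothelial markers -0.30 to -0.22, 0.12 to 0.14 and -0.11 to 0.35. Of 84 markers measured, 0 had a deposited signal of 0 in any array. The part of these lists in the members' values was not tested.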

How the data were processed

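RNA of 9 hippocampus samples, 6 µg each, was hybridised to Affymetrix mouse gene arrays, 3 per group by the sample titles. The authors deposited a linear signal intensity per probe set, 35556 in all, produced in the Affymetrix software Expression Console, per the submitters' processing notes. Neither the release nor the method is given in the sources used here. Arrays carry no read depth, and their number limits the precision. Signals were quantile normalised, 16 was added and log2 taken. Of the probe sets, 21218 name 1 gene, 1881 several and 12457 are unlisted here, and the gene identifiers of 21185 probe sets matched RefSeq symbols. The probe set with the highest mean stood for each of 1386 genes with several. No filter on dim genes was applied.

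Groups were compared with limma 3.58.1 in R 4.3.3, in 1 linear model over all 9 arrays with a trend of the prior variance on level, checked on simulated data. Calls were made where the p adjusted over 18820 genes by Benjamini-Hochberg was under 0.05. Errors of differences are SE and of levels SD, with n = 3 per group. Differences are on the log2(signal + 16) scale. Array values were given for the members with the smallest p in each comparison, 4 each, and a fixed set of others. The members and gene lists were chosen with earlier results of these data known. The 21 alternatives changed the added constant, the normalisation, the filter, the probe set rule, the variance prior, array weights, a replicate block and the arrays used.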

Additional observations from a re-analysis of the deposited data

How the results depend on the processing

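No member was called under any of the 21 alternatives, in any comparison. The members' median difference between surgery and control was 0.13 under median scaling and -0.04 with control replicate 1 alone as control, against 0.00. For all genes these medians were 0.10 and 0.03, against 0.02. Between Maresin 1 and surgery the members' median was -0.23 under median scaling and -0.12 without normalisation, against -0.04. For all genes it was -0.09 and 0.00, against -0.02. Between Maresin 1 and control the members' median was -0.13 without normalisation, against -0.07, and that of all genes was -0.03, against 0.00. The members' median ran from -0.08 to -0.02 when 1 array was left out, the latter without control replicate 1. Leaving out 1 array gave medians from -0.03 to 0.01 between surgery and control and from -0.06 to -0.03 between Maresin 1 and surgery. Between Maresin 1 and control the count of members at an unadjusted p under 0.05 was 13 (11.5% of all genes), 0 without normalisation (1.15%), 1 with median scaling (3.48%), 6 without a trend in the variance prior (10.3%) and at most 19, without control replicate 2 (9.6%). Between Maresin 1 and surgery it was 7 (5.66%), 0 without normalisation (0.855%), 4 without the trend (5.45%) and 10 with median scaling (3.67%). The count of all genes called between Maresin 1 and control was 16, 38 with median scaling, 43 without normalisation, 4 with control replicate 1 alone, 0 without the trend and 0 to 245 when 1 array was left out. Between surgery and control it was 0, 37 with median scaling, 42 without normalisation and 169 without control replicate 1. Correlations of deviations between arrays of different groups ran from -0.24 to 0.05 where the replicate number of the titles was the same. Where it was not, they ran from -0.15 to 0.19. Arrays of the same number were thus no more alike, but this cannot show whether they were collected or processed together. With the replicate number as a block 0 members were called, with 11 at an unadjusted p under 0.05 between Maresin 1 and control (9.17% of all genes), and 0 of all genes were called in that comparison. The causes of these shifts were not tested.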
